A study of Rattus norvegicus with 164 samples.

Results

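Endocannabinoid signalling was described across RNA sequencing libraries of rat prelimbic cortex through 7 genes: Cnr1, Dagla, Daglb, Mgll, Faah, Napepld and Abhd6. They were chosen by symbol for their roles in the pathway and make up 7 of the 38354 genes in the deposited table. All 7 had a mean of at least 1 on the scale used here and were among the 15150 genes tested. The animals were heterogeneous stock rats, outbred animals that descend from a cross of inbred strains, and the series was made for genetic analyses of gene expression. Polyadenylated RNA was sequenced, 1 library per animal identifier. Of the 130 libraries, 68 have a decimal number as identifier and 62 an identifier that starts with E21DCD. For 11 of these 62 the label records an earlier name replaced after a mismatch of genotypes. These 11 are called reassigned, and the remaining 51 are called E21DCD. The labels give every animal the same tissue and state no treatment, age or sex. Whether the libraries came from separate dissections is not stated, so p-values measure the spread between libraries.

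Endocannabinoids are lipid messengers that neurons make on demand in the postsynaptic membrane. They travel backwards across the synapse to the CB1 receptor, a Gi/o-coupled receptor on axon terminals, and reduce transmitter release there. In the cortex the receptor is dense on terminals of cholecystokinin interneurons and is present at lower density on glutamatergic terminals. The main brain endocannabinoid, 2-arachidonoylglycerol (2-AG), is cut from diacylglycerol by diacylglycerol lipases and broken down by monoacylglycerol lipase and ABHD6. The other, anandamide, can be made by the phospholipase NAPE-PLD and is broken down by fatty acid amide hydrolase.

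Levels are given as log2(CPM + 1), where CPM is the estimated count scaled to a total of 1000000 per library. Summed counts per library ranged from 15.1 to 55.95 in units of 1000000. The least counted of the 7 genes, Napepld, had an estimated count of 119 to 1332 per library with a median of 565, and Mgll, the most counted, had 4931 to 26247. Counts were not divided by transcript length, so levels of different genes are not compared with each other.

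In 11 libraries, all of the decimal series, the tissue label went against the expression of defining markers. Drd2, the D2 dopamine receptor of striatal projection neurons, was at 7.25 to 7.90 in these 11 and at 1.94 to 4.65 in the other 119. The other striatal projection neuron markers on the list of 10 that holds Drd2 all lay above, and all 8 glutamatergic cortical markers below, the range of the cortical libraries described next. The 11 are called striatal-like here, and the 119 with Drd2 at 6 or below are called cortical. Among the cortical libraries, 7 stood apart with Gad2, a GABA-synthesising enzyme, at 2.37 to 4.27, against 5.14 to 6.52 in the other 112. These 7 are decimal replicate 15 and 6 of the E21DCD series. The 112 remaining libraries, 56 decimal, 11 reassigned and 45 E21DCD, are called the other cortical libraries.

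Cnr1, the gene of the CB1 receptor, was the gene of the 7 with the largest difference between striatal-like and cortical libraries. It lies on chromosome 5 at 53204867 to 53230396 (GRCr8, RefSeq). Its level was 5.54 at the lowest, 6.09 at the median and 6.59 at the highest in the 11 striatal-like libraries, against 7.41, 8.18 and 8.42 in the 112 other cortical libraries. Every striatal-like library lay below every other cortical library. The medians differed by -2.09, a fold of 0.234, and 1.41% of the tested genes had a lower difference. On the linear scale the medians were 67.1 CPM in striatal-like and 289.5 in other cortical libraries. The kinds of library were told apart by their expression, so none of these differences was tested. In bulk tissue, fewer cells of a type and less RNA per cell cannot be told apart.

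The genes of 2-AG synthesis both had lower medians in the striatal-like libraries, and for Daglb the ranges were separate. Dagla encodes the diacylglycerol lipase that makes most 2-AG for retrograde signalling at synapses of the adult mouse brain. It lies on chromosome 1 at 216315515 to 216372219. Its level was 6.43, 6.65 and 6.77 (lowest, median, highest) in striatal-like and 6.50, 6.88 and 7.12 in other cortical libraries, and only 2 of the 11 fell below the cortical range. Daglb, the second diacylglycerol lipase, known in mice from its part in macrophages and microglia, lies on chromosome 12 at 16173345 to 16215777. Its level was 4.62, 4.77 and 4.93 in striatal-like and 4.97, 5.27 and 5.69 in other cortical libraries. The 2 ranges did not meet, and the medians differed by -0.50.

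Of the genes of 2-AG breakdown, Mgll had a lower median in the striatal-like libraries and Abhd6 stood level. Mgll encodes monoacylglycerol lipase, the enzyme that ends most 2-AG signalling, and lies on chromosome 4 at 122749436 to 122851440. Its level was 7.95, 8.26 and 8.43 in striatal-like and 8.25, 8.44 and 9.33 in other cortical libraries. The medians differed by -0.18, beside -0.22 for Dagla. The ranges overlapped, and 5 of the 11 striatal-like libraries lay below the cortical range. Abhd6, a membrane hydrolase with a smaller share in 2-AG breakdown, lies on chromosome 15 at 19289967 to 19337500. Its level was 5.26, 5.61 and 5.76 in striatal-like and 5.21, 5.59 and 5.91 in other cortical libraries. All 11 values lay within the cortical range, and the medians differed by 0.01, or by -0.06 with median-of-ratios scaling.

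The anandamide genes both had lower medians in striatal-like libraries, with overlapping ranges. Napepld, whose enzyme releases anandamide from a membrane phospholipid, lies on chromosome 4 at 14251591 to 14291010. Its level was 3.68, 3.89 and 4.11 in striatal-like and 3.94, 4.51 and 4.88 in other cortical libraries, and 7 of the 11 lay below the cortical range. Faah, the fatty acid amide hydrolase that breaks anandamide down, lies on chromosome 5 at 134716545 to 134735396. Its level was 4.69, 5.04 and 5.34 in striatal-like and 5.31, 5.91 and 6.32 in other cortical libraries. Faah's medians differed by -0.86, and 10 of the 11 lay below the cortical range.

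**Figure D1:**
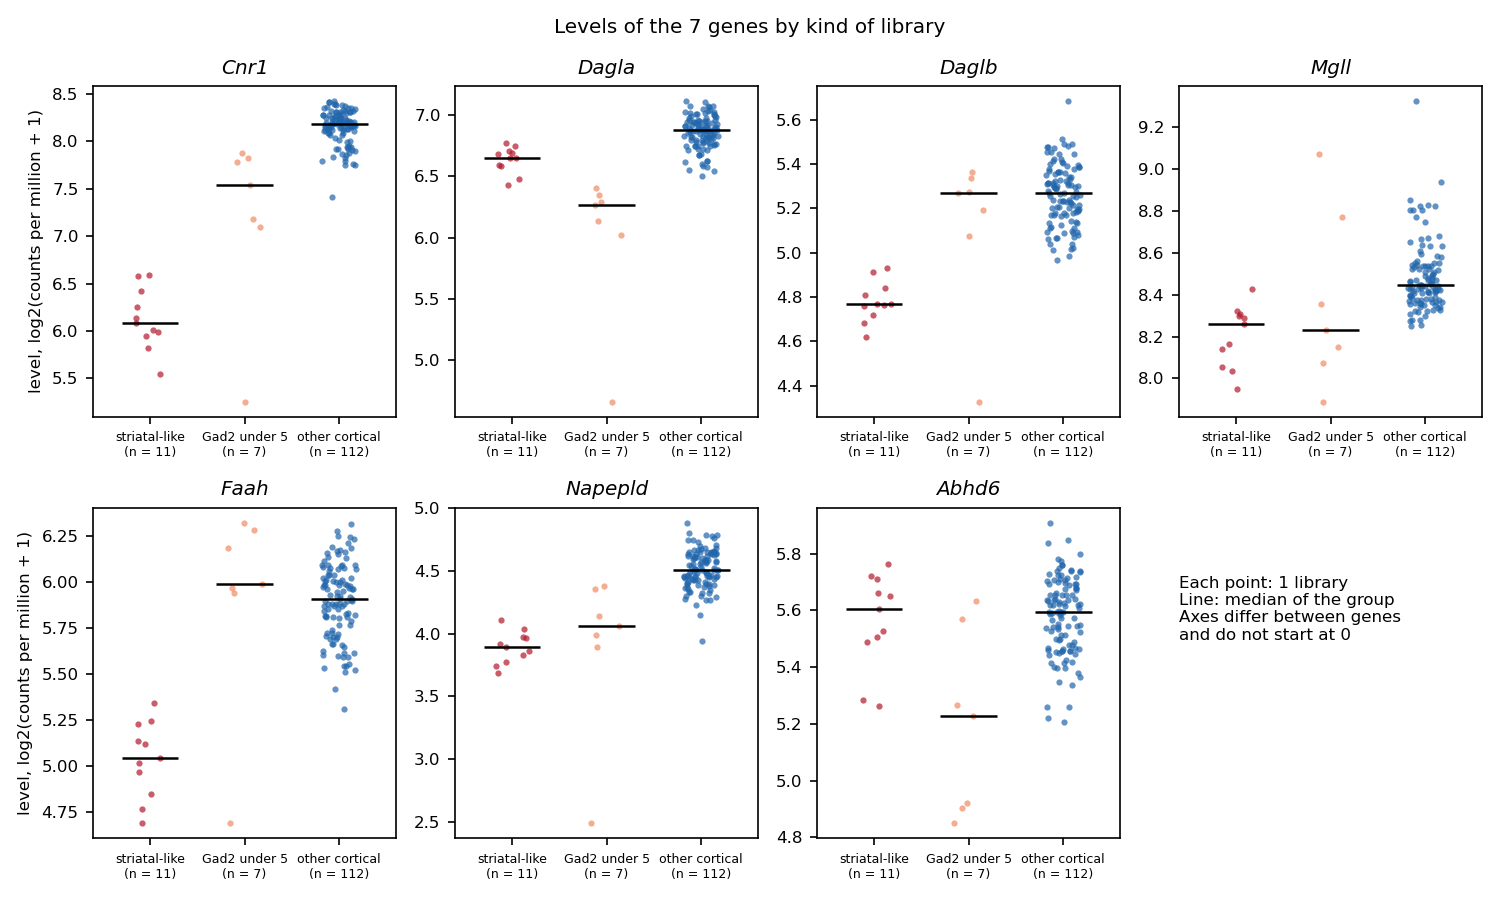
Level of each of the 7 genes, log2(CPM + 1), with 1 point per library and a line at the median of 11 striatal-like libraries, 7 cortical libraries with Gad2 under 5 and 112 other cortical libraries. The striatal-like points lie below all other cortical points for Cnr1 and Daglb and within their range for Abhd6, and decimal replicate 15 is the lowest point of the middle group in every panel except that of Abhd6.

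Of the 7 genes, 2 (Cnr1 and Daglb) had ranges that lay below those of the other cortical libraries, where 7.1% of the 15150 tested genes did, and none lay above, where 5.15% did. Set against all 119 cortical libraries no member's range was separate, where 7.31% of all genes had separate ranges, 2.86% below and 4.45% above, since decimal replicate 15 reached down to 5.25 for Cnr1 and 4.33 for Daglb. With median-of-ratios scaling Faah's striatal-like range also lay below that of the other cortical libraries. Per library, the shift of the median gene under that scaling was -0.14 to 0.80. Marker lists moved with these differences. Summed glutamatergic markers were 14.8 to 580 CPM in striatal-like and 1978 to 3137 in other cortical libraries. Summed oligodendrocyte markers were 12251 to 24009 in striatal-like and 1126 to 21348 in other cortical libraries. Those of CCK and VIP interneurons were 76.2 to 247 in striatal-like and 466 to 919.7 in other cortical libraries. Of the 6 genes of that list only Cck and Vip lay below the other cortical range. The median difference of that list was -0.11. The part of these lists in the lower Cnr1 was not tested.

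Within the 11 striatal-like libraries, the level of Cnr1 went with that of Slc17a7, the vesicular glutamate transporter of cortical projection neurons, which ranged from 2.75 to 8.83 there. Pearson's r was 0.82 and Spearman's rho 0.85 (permutation p = 0.00195 and 0.00171; adjusted p = 0.01365 over the 7 genes), and r was 0.83 without the 2 farthest libraries. Mgll had an r of 0.73 and a rho of 0.62 (adjusted permutation p = 0.0476 for r), and r was 0.70 without the 2 farthest libraries. The other 5 genes did not pass, with r of -0.17 for Dagla and 0.63 for Faah as the extremes. All 11 libraries are of 1 series, so no split by series could be made.

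Other genes of the pathway were described from 6 lists, with 37 genes in all and 30 tested. Of these 30, 5 lay below the range of the other cortical libraries in all 11 striatal-like libraries, and none lay above, where 7.1% of all genes lay below and 5.15% above. Cnrip1, which encodes a protein that binds the tail of the CB1 receptor, was at 5.77 to 6.26 in striatal-like and 6.71 to 7.51 in other cortical libraries. Plcb4, a phospholipase C that supplies diacylglycerol, was at 4.12 to 4.58 in striatal-like and 4.76 to 5.91 in other cortical libraries. Ptgs2, a cyclooxygenase that can oxidise endocannabinoids, was at 2.87 to 3.63 in striatal-like and 4.17 to 6.24 in other cortical libraries. The remaining genes below the range were Plaat1, a phospholipase and acyltransferase, and Fabp3, a fatty acid carrier. The second cannabinoid receptor, Cnr2, had a median of 1.26 in striatal-like and 0.96 in other cortical libraries and did not enter the tests.

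In the 7 cortical libraries with Gad2 under 5, Dagla was the only one of the 7 genes whose values all lay below those of the other cortical libraries, where 6.26% of all genes did. None of the 7 lay above, where 1.59% did, and 7.85% lay apart in either direction. Dagla's values were 4.66 in decimal replicate 15 and 6.30, 6.41, 6.02, 6.14, 6.27 and 6.35 in E21DCD replicates 2, 4, 8, 19, 30 and 49, against a lowest value of 6.50 in the other cortical libraries. Decimal replicate 15 was far below the remaining 6, which lay close together. Cnr1 had 5.25 in decimal replicate 15 and 7.10 to 7.88 in the 6 E21DCD libraries, and 3 of the 7 fell below the cortical range. Medians of the 7 against those of the 112 differed by -0.65 for Cnr1, -0.45 for Napepld and -0.37 for Abhd6 (-0.19 with median-of-ratios scaling), while Daglb (0.00) and Faah (0.08) stood level or higher. The median of all tested genes differed by -0.12. Mgll's difference was -0.21, and it was 0.02 with median-of-ratios scaling. Summed ribosomal protein messages were 2353 to 8811 CPM in the 7, against 1803 to 3855 in the other cortical libraries. Summed glutamatergic markers were 1074 to 3151 in the 7, against 1978 to 3137. Summed CCK and VIP interneuron markers were 801 to 1848 in the 7, against 466 to 919.7, and Adarb2 alone of that list lay below the range. The part of these in the lower Dagla and Cnr1 was not tested.

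The decimal and E21DCD series were compared over cortical libraries with limma, a linear model fitted across all 15150 genes with Benjamini-Hochberg adjusted p-values. Of the 7 genes, Mgll alone passed an adjusted p of 0.05, and it was higher in the decimal series. Among all genes 8.77% passed, 5.29% higher and 3.48% lower. Mgll was at 7.89, 8.48 and 9.33 (lowest, median, highest) in 57 decimal and 8.07, 8.40 and 9.07 in 51 E21DCD libraries. The ranges overlapped almost wholly, and the series differed in their centres. The decimal minimum and the E21DCD maximum each came from a library with Gad2 under 5 (decimal replicate 15 and E21DCD replicate 19). The mean of Mgll was 8.54 ± 0.21 in the decimal and 8.42 ± 0.15 in the E21DCD series (SD). This was a difference of 0.12 (SE 0.036, limma adjusted p = 0.0197).

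Cnr1 and Faah had lower means in the decimal series that did not pass. Cnr1 was at 5.25, 8.13 and 8.37 in decimal and 7.10, 8.21 and 8.42 in E21DCD libraries. Its difference was -0.12 with a 95% interval of -0.26 to 0.01 (limma adjusted p = 0.285), and without decimal replicate 15 it was -0.07 (adjusted p = 0.295). Faah was at 4.69, 5.89 and 6.32 in decimal and 5.51, 5.97 and 6.32 in E21DCD libraries. Its difference was -0.11 with an interval of -0.20 to -0.03 (limma adjusted p = 0.0887; 0.0445 with median-of-ratios scaling). Dagla (-0.03), Daglb (0.03), Napepld (0.00) and Abhd6 (0.00) had differences whose intervals reached no farther than 0.13 from 0 in the direction of lower and 0.10 in that of higher.

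The calls moved with the libraries that stood apart. Without the 7 libraries with Gad2 under 5, 34.2% of all genes passed between 56 decimal and 45 E21DCD libraries, 19.2% higher and 15% lower. Cnr1, Dagla and Mgll passed. There Cnr1 fell by 0.15 (SE 0.033, limma adjusted p = 0.000261), with values of 7.41, 8.13 and 8.37 in decimal and 7.79, 8.24 and 8.42 in E21DCD libraries. Dagla fell by 0.06 (SE 0.026, adjusted p = 0.0415), with medians of 6.83 in decimal and 6.92 in E21DCD libraries. Mgll rose by 0.14 (SE 0.031, limma adjusted p = 0.000351). Its values were 8.28, 8.48 and 9.33 in decimal and 8.25, 8.41 and 8.63 in E21DCD libraries, so the decimal range reached higher. Within the decimal series the SD was 0.18 for Cnr1, 0.14 for Dagla and 0.19 for Mgll, and each difference was smaller than it. Within the E21DCD series the SD was 0.145 for Cnr1, 0.106 for Dagla and 0.0902 for Mgll, and the differences of Cnr1 and Mgll were larger than it. With the striatal-like libraries included (68 decimal, 51 E21DCD), 27.6% of all genes passed. Cnr1 was then lower by 0.43 (limma adjusted p = 0.0041) and Faah by 0.25 (adjusted p = 0.0012), and Mgll did not pass (difference 0.07, adjusted p = 0.175). The striatal-like libraries are all decimal and were set apart by expression. Their untested gap to the cortical libraries enters these differences and p-values, which therefore do not measure the series alone.

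**Figure D2:**
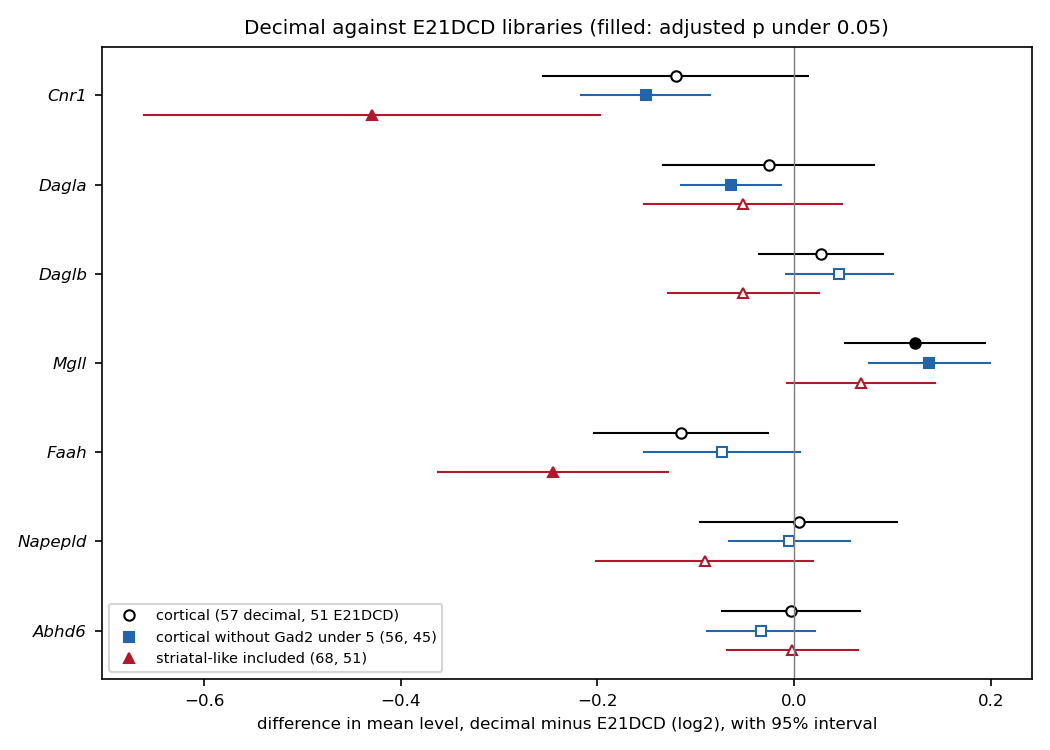
Difference in mean level, decimal minus E21DCD, on the log2 scale for each gene with its 95% interval, over cortical libraries, over cortical libraries without those with Gad2 under 5, and with the striatal-like libraries included; filled symbols passed an adjusted p of 0.05. Mgll lies right of 0 in all 3, and Cnr1 lies left of 0, farthest at -0.43 where the striatal-like libraries enter.

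Several marker lists moved with the series. All 8 markers of oligodendrocytes, the myelin-forming glia, were higher in the 57 decimal than in the 51 E21DCD cortical libraries by limma, with a median difference of 0.62. Their summed level spanned 1126 to 21348 CPM over the other cortical libraries. With the mean z-score of these 8 markers as a covariate none of the 7 genes passed, where 5.33% of all genes did. Mgll then had a difference of 0.06 (limma adjusted p = 0.363). Without the 7 libraries and with that covariate, Cnr1 had a difference of -0.04 (adjusted p = 0.488) and Dagla one of -0.01 (adjusted p = 0.862). In that setting 5.95% of all genes passed. Of the ribosomal protein messages 5 of 8 were higher, with a median difference of 0.18, and of the markers of meningeal fibroblasts 4 of 6 were lower, with one of -0.28. Without the 7 libraries, where 19.2% of all genes were higher and 15% lower, 5 of 8 astrocyte markers were higher (median 0.12). So were 6 of 7 microglial markers (0.19), 3 of 4 oligodendrocyte precursor markers (0.12) and 8 of 8 ribosomal messages (0.20). Lower were 3 of 3 genes of the GABA list (-0.12) and 3 of 6 CCK and VIP interneuron markers (-0.09). Of the 4 PV and SST interneuron markers 2 were higher and 1 lower (0.04). Of the 10 striatal projection neuron markers 2 were higher over the cortical libraries and 0 lower (median 0.08). Without the 7 libraries 4 of these 10 were higher and 1 lower (0.12). The part of these lists in the differences of the 7 genes was not tested beyond the oligodendrocyte covariate. The series cannot be told apart from anything else that went with it.

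Between the 11 reassigned and the 51 E21DCD libraries none of the 7 genes and none of the 15150 passed by limma (0% passed; 634 genes had an unadjusted p under 0.05, and 0 passed with median-of-ratios scaling). Differences of the 7 ran from -0.05 for Faah to 0.04 for Dagla. Cnr1, for example, was at 8.01, 8.17 and 8.39 in the reassigned libraries. The 95% interval of its difference was -0.14 to 0.20.

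Of the 30 other pathway genes tested between decimal and E21DCD cortical libraries, 2 were higher and 2 lower, where 5.29% of all genes were higher and 3.48% lower. Those higher were Plcb3, a phospholipase C (0.21, limma adjusted p = 0.0173), and Fabp5, a carrier that can take anandamide to its hydrolase (0.17, adjusted p = 0.0398). Those lower were Chrm1, the M1 muscarinic receptor whose activation can drive 2-AG release (-0.13, adjusted p = 0.011), and Plaat1 (-0.14, adjusted p = 0.0114). The median difference of the lists ran from -0.05 for the Gi/o proteins to 0.10 for the carriers, beside 0.00 over all genes. Without the 7 libraries 8 of the 30 were higher and 10 lower, at a background of 34.2%. Grm5 (-0.22), a glutamate receptor that can trigger 2-AG synthesis, was then among the lower. Fabp7 (0.27) and Fabp5 (0.24) were among the higher. With the oligodendrocyte covariate added, 2 of the 30 were higher (Fabp5 and Gde1) and 0 lower, and the number of all genes that passed was 902 in place of 5177.

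Over the 112 other cortical libraries the 7 genes varied by about the amount usual for their level. The SD was 0.13 for Dagla, 0.14 for Daglb and Abhd6, 0.15 for Napepld, 0.16 for Mgll, 0.18 for Cnr1 and 0.21 for Faah. Divided by the trend of SD on mean level, Faah was the most variable at 1.41, and 83.4% of genes had a lower ratio. Cnr1 followed at 1.24, and the lowest was Daglb at 0.89. Faah's highest library exceeded its lowest by 2.01-fold.

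Pairs of the 7 genes were correlated across libraries. Because the 7 libraries with Gad2 under 5 form a cluster of their own, the values over the 112 other cortical libraries are given first. Over these, 12 of the 21 pairs passed an adjusted permutation p of 0.05, 8 positive and 4 negative. Over all 119 cortical libraries 14 passed, all positive. The smallest p that 100000 permutations can give is 1e-05. Over the 112 libraries the median size of r with any tested gene was 0.29 for Cnr1, 0.28 for Mgll and 0.25 for Dagla, and from 0.13 to 0.19 for the other 4. The middle 90% of r ran from -0.61 to 0.64 for Cnr1 and from -0.62 to 0.59 for Mgll.

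Cnr1 was positive with Dagla and Napepld and negative with Mgll, and the first 2 values lie within that range for Cnr1, though just above its upper end for Dagla (0.53) and above that for Napepld (0.43). The value with Mgll lies below the range of both genes. Cnr1 with Dagla had an r of 0.54 and a rho of 0.45 (adjusted permutation p = 5.25e-05), and r was 0.52 without the 2 farthest libraries. It was 0.60 within the decimal and 0.41 within the E21DCD series. Cnr1 with Napepld had an r of 0.52 and a rho of 0.41 (adjusted permutation p = 5.25e-05), and r was 0.41 without the 2 farthest libraries. It was 0.62 within the decimal and 0.41 within the E21DCD series.

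Cnr1 with Mgll had an r of -0.66 and a rho of -0.51 over the 112 libraries (adjusted permutation p = 5.25e-05). Within the decimal series r was -0.67 and within E21DCD -0.45, and without the 2 farthest libraries it was -0.57. Over all 119 it was -0.12 (adjusted permutation p = 0.219), where decimal replicate 15 is low in both genes. Mgll also ran against Napepld, with an r of -0.47 and a rho of -0.28 (adjusted permutation p = 5.25e-05). That r was -0.30 without the 2 farthest libraries, one of which is decimal replicate 7, the highest of the 112 for Mgll (9.33) and the lowest for Cnr1 (7.41) and Napepld (3.94).

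The other relations were weaker. Napepld with Abhd6 had an r of 0.38 and a rho of 0.33 (adjusted permutation p = 0.000126). Daglb with Faah had an r of 0.24 (adjusted permutation p = 0.0212), and 0.21 with median-of-ratios scaling, where it did not pass (adjusted permutation p = 0.056). Daglb had a rho of -0.23 with Cnr1 and -0.22 with Napepld (adjusted permutation p = 0.0395 for each), though r did not pass (-0.19 and -0.12). Within the E21DCD series these r were -0.49 and -0.58. Mgll with Abhd6 passed with an r of -0.21, but its rho was -0.02 and r was 0.15 within the E21DCD series. Component 1 of a principal component analysis, with 19.0% of the variance over the 112 libraries, had an r of -0.85 with Cnr1, -0.70 with Dagla, -0.46 with Napepld and 0.75 with Mgll. It had one of 0.23 with Daglb, -0.14 with Faah and -0.25 with Abhd6. After 10 components were regressed out, the 21 r lay between -0.20 and 0.20, none passed, and Cnr1 with Mgll was at 0.10.

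**Figure D3:**
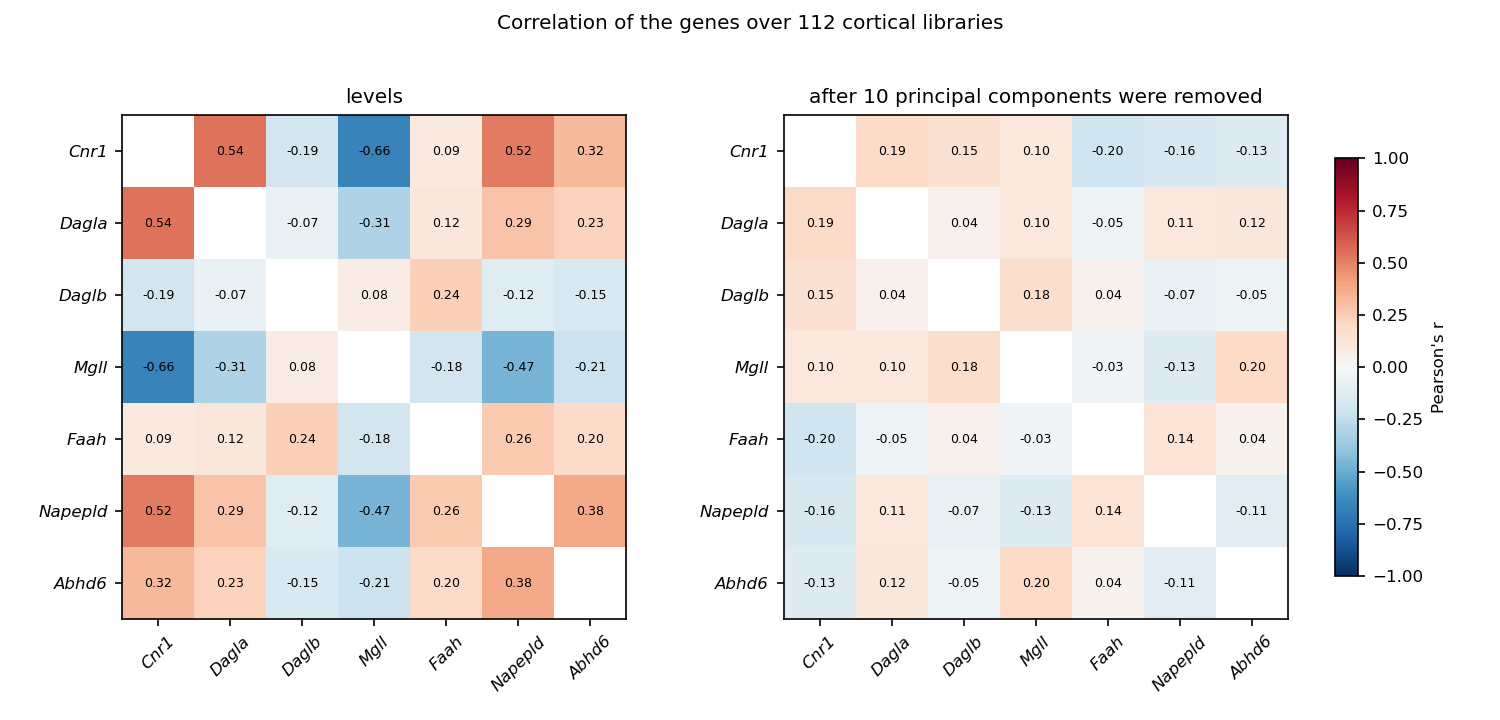
Pearson's r between the 7 genes over 112 cortical libraries, for the levels (left) and after 10 principal components were regressed out (right). Mgll is negative with Cnr1 (-0.66) and Napepld (-0.47) on the left, and all values on the right lie between -0.20 and 0.20.

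Each gene was then set against 13 lists of cell type markers and ribosomal proteins, scored by mean z-score. Over the 112 libraries 62 of 91 relations passed an adjusted permutation p of 0.05, 25 positive and 37 negative. Mgll went with astrocytes (r 0.83, rho 0.70), the glia that clear glutamate, and against the GABA list of Gad1, Gad2 and Slc32a1 (r -0.69, rho -0.48). It was also positive with microglia (r 0.74, rho 0.59), endothelial cells (r 0.71, rho 0.52), ribosomal proteins (r 0.70, rho 0.63) and oligodendrocytes (r 0.55, rho 0.40). Its r with astrocytes was 0.90 within the decimal and 0.47 within the E21DCD series, and 0.77 without the 2 farthest libraries.

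Cnr1 had the reverse pattern. It went with the GABA list (r 0.70, rho 0.56) and with glutamatergic neurons (r 0.60, rho 0.49), and against ribosomal proteins (r -0.79, rho -0.72), microglia (r -0.72, rho -0.59), oligodendrocytes (r -0.71, rho -0.68) and astrocytes (r -0.62, rho -0.47). Within the E21DCD series its r with glutamatergic neurons was 0.25 and with astrocytes -0.18, against 0.70 and -0.70 within the decimal series. Dagla was lowest with ribosomal proteins (r -0.77, rho -0.73) and highest with the GABA list (r 0.58, rho 0.57).

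The other 4 genes had weaker relations. Abhd6 was highest with CCK and VIP interneurons (r 0.44, rho 0.43) and lowest with oligodendrocytes (r -0.47, rho -0.41). Napepld was highest with the GABA list (r 0.39, rho 0.25) and lowest with astrocytes (r -0.46, rho -0.25). Daglb was highest with PV and SST interneurons (r 0.38, rho 0.35). Faah stayed between -0.26 with astrocytes and 0.28 with CCK and VIP interneurons, the narrowest range of the 7 genes. Adjusted permutation p-values of the relations named here were at most 0.0109 for r.

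**Figure D4:**
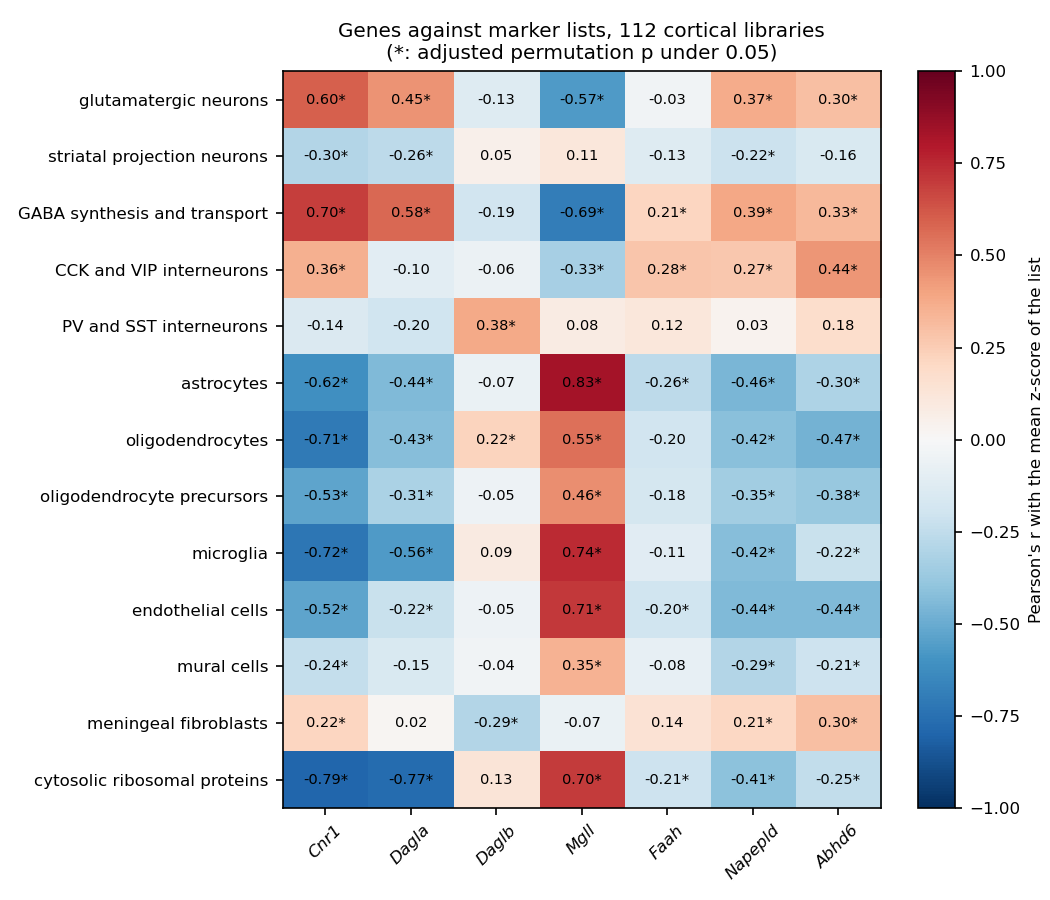
Pearson's r of each gene with the mean z-score of 13 marker lists over 112 cortical libraries; an asterisk marks an adjusted permutation p under 0.05. Mgll (0.83 with astrocytes) and Cnr1 (-0.62) have opposite signs for all 13 lists, and the column of Faah is pale throughout.

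Genes whose pattern was most like each member were ranked by Pearson's r over the 119 cortical libraries, using only genes whose mean reached 3. Cnr1 was nearest to Slc2a13, an inositol transporter (0.96), and Dagla to Adgrl1, a latrophilin adhesion receptor (0.94). Mgll was nearest to Ttyh1, a membrane protein (0.88), with Brsk1, Acsbg1, Nsmf and Map3k10 as the rest of its first 5. Over the 112 other cortical libraries its first 5 were Rasl10b, Brsk1, Git1, Psd and Cdk16, and Ttyh1 had rank 7. Napepld was nearest to Pja2 and Syt1 (0.88 each), Abhd6 to Man1c1 (0.72), Daglb to Tcf25 (0.71) and Faah to Atpaf1 (0.70). Without the 7 libraries with Gad2 under 5, 20 of the 35 genes named in this way were still among the 20 nearest, 5 of 5 for Mgll and 1 of 5 for Abhd6.

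After 10 components were regressed out over the 112 libraries, the nearest genes changed. Cnr1 was then nearest to C1ql3 (0.56), a secreted synaptic protein, Slc6a17 (0.53), Pgrmc1 (0.52), Bdnf (0.50) and Nptx2 (0.46). Of these, Bdnf and Nptx2 are known as genes induced by neuronal activity. On the levels of the 112 libraries r with Cnr1 was 0.83, 0.76, 0.40, 0.54 and 0.03 in that order. LOC120102853, which overlaps Cnr1 in RefSeq, had an r of 0.39 with it after the 10 components. The counting is not stated to use strand, so reads of the overlapping part cannot be told apart. After these components Dagla was nearest to Ano3 (0.51), a membrane protein of the anoctamin family.

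Several of the genes nearest to Faah lay close to it on chromosome 5. After the 10 components, its 5 nearest genes were LOC100361636 on chromosome 14 (-0.68), Gpbp1l1 on chromosome 5 (0.68), Gpbp1l2 on chromosome 2 (-0.64), Pomgnt1 (0.49) and Atpaf1 (0.49), both on chromosome 5. No gene on another chromosome except LOC100361636 and Gpbp1l2 reached the 0.49 of Pomgnt1. Gpbp1l1, a transcription factor related by name to GPBP1, lies 509.8 kb from Faah by the deposited positions. Pomgnt1, a glycosyltransferase, lies 135.6 kb from Faah, and Atpaf1, an assembly factor of the mitochondrial ATP synthase, 232.2 kb. Of the 33 other tested genes within 1000 kb, these 3 had an r over 0.3, the median was 0.03 and the lowest was -0.35. They were picked for their size among all genes, so their p-values overstate the evidence.

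The relations of Faah with these genes had the same sign in both series, though both are part of the 112 libraries in which the genes were picked. Without removal of components, Atpaf1 had an r of 0.63 and a rho of 0.60 over the 112 libraries (adjusted permutation p = 2.16e-05 over 54 relations), 0.66 within the decimal and 0.63 within the E21DCD series. Gpbp1l1 had an r of 0.48 and a rho of 0.50, 0.40 within decimal and 0.55 within E21DCD. Pomgnt1 had an r of 0.45 and a rho of 0.48, 0.46 within decimal and 0.50 within E21DCD. Without the 2 farthest libraries these r were 0.64 for Atpaf1, 0.46 for Gpbp1l1 and 0.43 for Pomgnt1. In the 11 reassigned libraries r was 0.34 for Atpaf1 (adjusted permutation p = 0.326), 0.67 for Gpbp1l1 and 0.63 for Pomgnt1. Without the 2 farthest of these 11 it was 0.48, 0.13 and 0.86. In the 11 striatal-like libraries the r of Atpaf1, Gpbp1l1 and Pomgnt1 were 0.20, 0.06 and 0.50, and none passed.

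Gpbp1l2 and LOC100361636 ran opposite to Gpbp1l1, with r of -0.74 and -0.76 over the 112 libraries and -0.77 within the decimal series for each. Within E21DCD they were -0.74 and -0.76. Levels of Gpbp1l2 fell into 24 libraries at 0 to 1.06 and 88 at 1.65 to 3.84, so r with Faah is given within each. It was -0.05 in the 24 (adjusted permutation p = 0.874) and -0.31 in the 88 (rho -0.32, adjusted permutation p = 0.0075). LOC100361636 fell into 32 libraries at 0 to 0.67 and 80 at 1.06 to 3.57, with r of -0.03 in the 32 and -0.46 in the 80 (rho -0.48, adjusted permutation p = 0.00016). The reads of like-named genes can be shared out between them in counting, so the levels of Gpbp1l1 and Gpbp1l2 are uncertain. Genotypes were not analysed here, and the part of local genotype in the level of Faah was not tested.

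**Figure D5:**
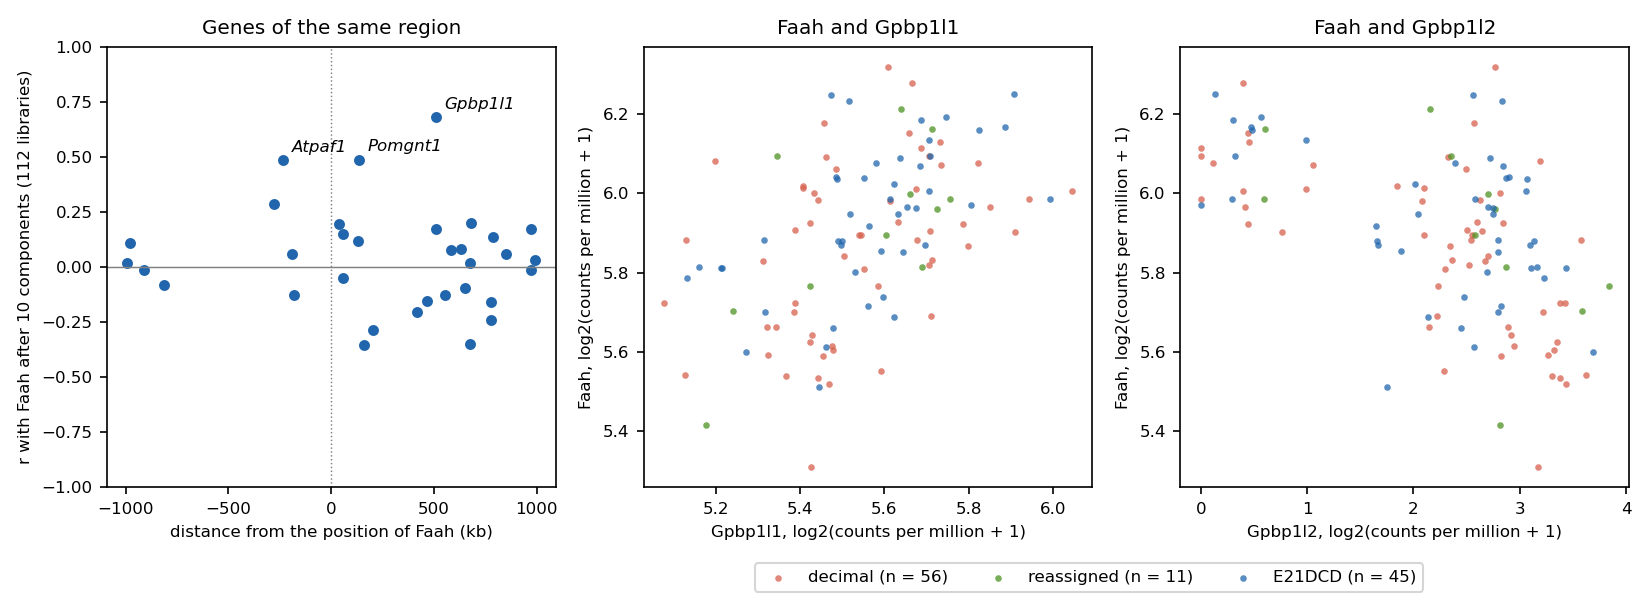
Left, r with Faah after 10 components for the 33 other tested genes within 1000 kb, by distance from Faah's deposited position in kb; middle and right, the level of Faah against Gpbp1l1 and Gpbp1l2, log2(CPM + 1), in 112 cortical libraries by series. Gpbp1l1 (0.68), Pomgnt1 (0.49) and Atpaf1 (0.49) stand above the other genes on the left; Faah rises with Gpbp1l1 (r 0.48), and Gpbp1l2 falls into 24 libraries at 1.06 or below and 88 at 1.65 or above.

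Abhd6 was the other member whose nearest gene lay close by. After 10 components its highest r was with Fam107a, an actin-binding protein of astrocytes, at 0.51 and 298.8 kb away on chromosome 15, and no other gene had a larger one. On the levels r was 0.36 and rho 0.39 over the 112 libraries (adjusted permutation p = 0.000212), 0.37 within the decimal and 0.31 within the E21DCD series (adjusted permutation p = 0.0562 in the last). Fam107a was picked for the size of its r among all genes in the same 112 libraries, so these p-values overstate the evidence. For Mgll and Napepld no gene within 500 kb passed 0.20 in size.

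Promoters are shown for Mgll and Napepld, which ran against each other, and for Faah, whose r with the marker lists had the narrowest range. RefSeq promoters (GRCr8, 250 bases before to 50 after the start) were found for 5 of the 7 genes, and none for Cnr1 or Dagla. Cnr1, which ran more strongly against Mgll than Napepld did, could therefore not be shown. The shown starts lie at the deposited position for Mgll and Faah and 1669 bases from it for Napepld. Capitals mark the GC box GGGCGG, the core of the Sp1 site, on either strand. The regions are chr4:122749186-122749485 (plus strand), chr4:14253010-14253309 (plus strand) and chr5:134735347-134735646 (minus strand).
Mgll: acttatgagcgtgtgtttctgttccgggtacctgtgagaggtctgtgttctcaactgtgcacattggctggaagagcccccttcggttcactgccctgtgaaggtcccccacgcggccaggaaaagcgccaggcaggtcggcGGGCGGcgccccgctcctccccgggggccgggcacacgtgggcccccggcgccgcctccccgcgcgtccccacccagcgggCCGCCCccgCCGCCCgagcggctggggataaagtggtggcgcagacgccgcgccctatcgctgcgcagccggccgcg
Napepld: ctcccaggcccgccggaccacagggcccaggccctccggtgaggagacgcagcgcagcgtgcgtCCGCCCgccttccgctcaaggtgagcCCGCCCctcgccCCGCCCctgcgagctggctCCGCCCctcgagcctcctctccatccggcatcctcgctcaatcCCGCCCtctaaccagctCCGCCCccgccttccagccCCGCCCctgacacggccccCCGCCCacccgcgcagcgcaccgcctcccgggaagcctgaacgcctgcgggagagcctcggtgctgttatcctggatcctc
Faah: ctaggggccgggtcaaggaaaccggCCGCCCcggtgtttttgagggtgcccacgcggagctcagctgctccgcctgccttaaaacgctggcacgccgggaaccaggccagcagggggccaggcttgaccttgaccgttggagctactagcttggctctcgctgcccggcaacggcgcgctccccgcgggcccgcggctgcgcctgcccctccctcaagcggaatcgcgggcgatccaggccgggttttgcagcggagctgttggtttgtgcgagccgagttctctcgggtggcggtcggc

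Napepld's promoter held 8 GC boxes, Mgll's 3 and Faah's 1, and Abhd6's 1 and Daglb's 0, where 55.1% of the 14774 promoters of tested genes held at least 1. GC content was 74.7% for Napepld, 72.3% for Mgll and 69.7% for Faah, beside a median of 59.3% over the promoters of tested genes. It was 60.3% for Abhd6 and 59% for Daglb. Both strands were also searched for the CRE TGACGTCA, the NRF1 site, the E box CACGTG and the TATA box TATAAA. TGACGTCA was in none of the 5 windows and in 2.72% of promoters of tested genes. The NRF1 site was in that of Daglb and 1.48% of promoters, and CACGTG in that of Mgll and 8.76%. TATAAA was in that of Daglb and 7.95%. Mgll's CACGTG overlapped none of its GC boxes. A match describes letters in the window and not binding.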

How the data were processed

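Values were deposited as log2(estimated count + 1) per gene and library; that the authors' values are log2 of estimated counts plus 1 was read from the values, of which 36.9% are 0, and from kallisto 0.48, named in the submitters' processing notes. The genome build and other steps are not given in the sources used here. The labels list 164 samples, and 34 without a column were not analysed here. The log was undone and the counts scaled to 1000000 per library, and put on log2 with a pseudocount of 1. No count model was used, since the unit is log2. Genes with a mean of at least 1 were tested with limma 3.58.1 (trend, R 4.3.3; p-values adjusted by Benjamini-Hochberg over all genes). Correlations used two-sided permutation tests with 100000 permutations, or 20000 for the alternatives (scipy 1.17.1), adjusted within each family. Libraries were grouped by the form of the animal identifier, with the reassigned ones set apart by the label's description, and the striatal-like (Drd2 over 6) and Gad2-under-5 libraries were set apart by expression. Alternatives were median-of-ratios scaling (size factors 0.523 to 2.12), other filters, pseudocounts and covariates, and left-out libraries. The members, the lists of genes and the tests were chosen with earlier results of these data known. For each member the 5 genes of highest r were named. The code was tested on simulated data. No 2 columns were identical, and after centring no 2 libraries correlated above 0.945. Not every gene of the pathway lists is reported here by name.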

Additional observations from a re-analysis of the deposited data

Results flagged for a closer look

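Decimal replicate 15 lay far below the other 6 cortical libraries with Gad2 under 5 for 5 of the 7 genes on the CPM scale. Its level was 5.25 for Cnr1, 4.66 for Dagla, 4.33 for Daglb, 4.69 for Faah and 2.49 for Napepld, and each gap to the nearest library exceeded Dixon's 95% critical value for 7 samples. Mgll and Abhd6 did not exceed it. Chance alone would mark about 1 in 20 such groups, and the 5 values come from 1 library. With median-of-ratios scaling its levels were 6.09 for Cnr1, 5.49 for Dagla, 5.15 for Daglb, 5.52 for Faah and 3.22 for Napepld. These were still the lowest of the 7 libraries. Its Daglb and Faah then lay within the ranges of the other cortical libraries (4.93 to 5.57 and 5.27 to 6.24). Its Abhd6, at 5.75, was then the highest of the 7. The Dixon comparison is given for the CPM scale only.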

How the results depend on the processing

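The number of genes past an adjusted p of 0.05 by limma between decimal and E21DCD cortical libraries (1328) was 4183 with all libraries, 5177 without those with Gad2 under 5, 2263 without decimal replicate 15, 850 with no filter on low values and 807 with the oligodendrocyte covariate. It was 5327 without those with Gad2 under 5 under median-of-ratios scaling, an alternative chosen after seeing the data. Pairs past the threshold over the 119 cortical libraries (14) numbered 8 by Spearman's rho and 7 without the 2 farthest libraries. Without the libraries with Gad2 under 5 they numbered 9 with median-of-ratios scaling and 0 after 10 components, both added after seeing the data. In that last setting Cnr1 with Napepld turned to -0.16, Cnr1 with Abhd6 to -0.13 and Napepld with Abhd6 to -0.11. Dagla with Mgll was 0.08 over the 119 libraries, -0.31 without the libraries with Gad2 under 5 and -0.24 with median-of-ratios scaling. Faah with Napepld was 0.39 over the 119 libraries. It was 0.26 without the libraries with Gad2 under 5 (adjusted permutation p = 0.0121). Within all 51 E21DCD libraries it was -0.20, and within the 45 left without those with Gad2 under 5 it was 0.08. Daglb was positive with Cnr1 (0.32) and Napepld (0.33) over the 119 libraries. With Cnr1 it was -0.18 by rho, -0.19 without the libraries with Gad2 under 5, -0.14 with median-of-ratios scaling, -0.18 with both, -0.30 within all 51 E21DCD libraries and -0.14 without the 2 farthest. With Napepld these were -0.17, -0.12, -0.14, -0.17, -0.42 and -0.15, and -0.073 after 10 components without the libraries with Gad2 under 5. Of the 35 most alike genes, 20 stayed among the 20 nearest without the 7 libraries. Striatal-like ranges lay below all cortical libraries for 0 members, for 2 with median-of-ratios scaling and for 2 without the libraries with Gad2 under 5. Mgll in the libraries with Gad2 under 5 differed by 0.024 under median-of-ratios scaling. The cause was not tested. Among pairs not named in the text 13 values turned sign where the main or the alternative value passed the threshold. Among list relations not named 34 did. Turns of sign where neither value passed were not counted. No paired analysis was possible because the labels give no replicate numbers. Low counts limit Napepld most.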
